A study of Mus musculus with 12 samples.

Results

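The tight junction genes described here are 7 genes taken by name from the 24411 genes in the files. They are the claudin genes Cldn4, Cldn6 and Cldn7, the occludin gene Ocln, F11r (junctional adhesion molecule A), Tjp1 (the scaffold ZO-1) and Cgn (the adaptor cingulin). All 7 passed the filter on low counts, which kept 14743 genes.

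The data are poly(A) RNA sequencing of 12 libraries of mouse blastocysts, with 10 embryos pooled in each. The genotype is wild-type ICR, an outbred mouse stock. Oocytes of superovulated mice were fertilized in vitro, and the embryos grew in KSOM medium to 96 hpi. The 6 groups, with 2 libraries each, cross 2 diets with 3 treatments. The diets are labelled ND and HFD, which the labels do not spell out. The title of the series speaks of obese mice and of mice of normal weight. Treated embryos received siRNA against Nampt (siNampt) or a non-targeting sequence (siNT) by electroporation at the 1-cell stage, at 3 to 6 hpi, and the third treatment is the control (C). Whether C embryos were electroporated is not stated in the labels. All groups share the genotype, the fertilization in vitro and the culture, and the labels give no age of the mice. Replicate numbers equal the batch tag, so each group has 1 library in each of 2 batches. Nothing in the labels ties a pool to its own mating, and the p-values therefore reflect only how pools differed, which may be partly technical. Nampt encodes an enzyme of NAD synthesis that is also known as visfatin.

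Libraries held 42473129 to 50503064 expected counts, and 16463 to 17924 genes had a count. Replicates of a group correlated at r = 0.964 to 0.972 across genes. Library HFD_siNT replicate 1 stood apart in estimated mean fragment size, at 187 bases against 212 to 232 in the other 11. Some results are therefore also given without it. The targeted gene Nampt was at 37.7 to 53.9 CPM (TMM-scaled counts relative to library size) in siNampt, 49.4 to 74.6 in siNT and 38.2 to 67.0 in C. Its log2 fold change, siNampt against siNT, was -0.43 (SE 0.17), with an adjusted p of 0.396 by edgeR's quasi-likelihood test. The summed TPM of 15 trophectoderm markers was 5899 to 10190 and that of 12 inner cell mass markers 481 to 723, with none at 0. Primitive endoderm markers summed to 81.2 to 129 TPM. Oocyte markers summed to 153 to 215 TPM, of which Ooep made up a mean of 175, and the other 7 had means under 1 TPM. Markers of cumulus cells summed to at most 2.28 TPM, of sperm to 5.29, of blood to 2.63 and of adult epithelia to 1.32.

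Tight junctions are belts of protein strands that join neighbouring epithelial cells near their apical side and limit what leaks between them. Claudins form the strands and set which ions pass, occludin and junctional adhesion molecules are further membrane components, and ZO proteins and cingulin tie the strands to actin. In the mouse embryo these junctions are built by the trophectoderm, the outer cell layer, before the fluid-filled cavity expands, and the seal retains that fluid. A blastocyst also contains the inner cell mass, which is not such an epithelium. In whole embryos, fewer cells of a type and less RNA per cell cannot be told apart.

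The promoters of the 3 claudin members are shown because these genes had the highest levels of their family and the largest siNampt differences over both diets among the 7. Each run covers 250 bases before to 50 after the gene start in RefSeq (build GRCm38.p6, the same primary sequence as mm10), written 5′ to 3′ on the gene's strand. They are chr5:134946885-134947184 on the minus strand for Cldn4, chr17:23679115-23679414 on the plus strand for Cldn6 and chr11:69964529-69964828 on the plus strand for Cldn7. The Cldn6 window counts from the start used in the promoter table, which lies slightly inside the annotated span of the gene. Capitals mark matches, on either strand, to CACCTG (an E-box bound by Snail-type repressors, read CAGGTG on the other strand) and to GGAATG (a TEAD motif, read CATTCC on the other strand).
Cldn4: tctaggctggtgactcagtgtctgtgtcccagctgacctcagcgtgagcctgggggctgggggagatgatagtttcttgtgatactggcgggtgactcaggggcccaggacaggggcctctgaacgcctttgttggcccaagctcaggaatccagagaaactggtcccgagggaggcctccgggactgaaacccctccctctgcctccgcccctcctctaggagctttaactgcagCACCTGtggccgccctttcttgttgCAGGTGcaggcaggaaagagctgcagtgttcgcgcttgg
Cldn6: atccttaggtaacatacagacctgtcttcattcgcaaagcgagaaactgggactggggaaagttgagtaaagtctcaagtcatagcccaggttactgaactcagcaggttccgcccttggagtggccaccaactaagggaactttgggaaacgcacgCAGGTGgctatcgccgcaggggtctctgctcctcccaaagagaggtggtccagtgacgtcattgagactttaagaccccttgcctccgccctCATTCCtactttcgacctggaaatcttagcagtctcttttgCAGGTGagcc
Cldn7: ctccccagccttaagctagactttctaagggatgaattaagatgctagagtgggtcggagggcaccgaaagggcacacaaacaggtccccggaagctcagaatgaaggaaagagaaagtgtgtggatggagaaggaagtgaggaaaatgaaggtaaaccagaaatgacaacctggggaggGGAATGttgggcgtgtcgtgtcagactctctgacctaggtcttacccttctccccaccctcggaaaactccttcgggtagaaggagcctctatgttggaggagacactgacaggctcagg
CACCTG occurred 2 times in the Cldn4 window and 2 times in that of Cldn6, and not in that of Cldn7. Over all members it was in 4 of 7 windows (Cldn4, Cldn6, Ocln and F11r), against 20.0% of 27025 promoters of the same length. GGAATG was in 2 of 7 (Cldn6 and Cldn7), against 14.6% of promoters. The AP-2 motif GCCNNNGGC was in 2 of 7 (Tjp1 and F11r), against 16.5%, and the grainyhead-like motif AACCGGTT in 0 of 7, against 0.152%. The windows of Tjp1 (chr7:65371195-65371494) and Cgn (chr3:94786433-94786732) lie wholly inside the annotated spans of their genes. The counts of 7 therefore include windows at internal starts, among them the Tjp1 match to AP-2. The 4 motifs do not overlap in these windows, and a match is a description of letters, not evidence of binding.

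Each gene lies on its own chromosome (GRCm38.p6). Cldn4 is at chr5:134945123-134946934, Cldn6 at chr17:23679348-23682446, Cldn7 at chr11:69964779-69967886, Tjp1 at chr7:65296165-65527850, Ocln at chr13:100496504-100552718, F11r at chr1:171437561-171464593 and Cgn at chr3:94760069-94787725. Cldn4 and Cldn6 have claudin neighbours. Cldn3 lies 39279 bases from Cldn4 with no annotated protein-coding gene between them, and Cldn9 lies 137 bases from Cldn6. Tjp1 overlaps the annotated genes Gm44794 and Gm44792 on its own strand and the processed pseudogene Gm44795 on the other. What reads of these genes add to its counts was not tested.

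Levels between genes are compared in TPM, which is scaled for transcript length. Over the 12 libraries Cldn4 had the highest mean at 405 ± 93.6 TPM (SD, n = 12), followed by Cldn7 at 381 ± 63.1, F11r at 96.3 ± 13.8, Cldn6 at 70.4 ± 18.9, Ocln at 29.6 ± 6.63, Cgn at 24.3 ± 1.62 and Tjp1 at 6.03 ± 1.04. Cldn4 ranked 462 and Cldn7 485 from the top among the tested genes, and Tjp1 ranked 5812. The ranges over libraries overlapped between Cldn4 and Cldn7, between F11r and Cldn6, between Cldn6 and Ocln, and between Ocln and Cgn. Within every library, however, F11r lay above Cldn6 and Cldn6 above Ocln. The order of Cldn4 and Cldn7 and that of Ocln and Cgn changed between libraries. In ND_C replicate 2, for example, Cldn4 was at 398 and Cldn7 at 401 TPM. The Cldn7 range (285 to 512 TPM) lay above that of F11r (73.9 to 117), and the highest Tjp1 library (8.31) lay below the lowest Ocln and Cgn libraries (21.3 and 21.4).

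Among claudins, RNA was concentrated in the 3 members. The files hold 31 claudin genes, of which 7 had a mean of at least 1 TPM and 1 (Cldn20) had no count in any library. Cldn4, Cldn6 and Cldn7 made up 92.0% to 96.4% of summed claudin TPM in each library, with mean shares of 44.4%, 7.68% and 42.2%. Cldn3, next in order, had 4.95% at a mean of 45.4 TPM. Below it came Cldn10 at 2.44, Cldn12 at 1.51 and Cldn34c1 at 1.30 TPM. The claudin-domain gene Cldnd1, counted apart from the 31, was at 15.8 TPM.

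**Figure D1:**
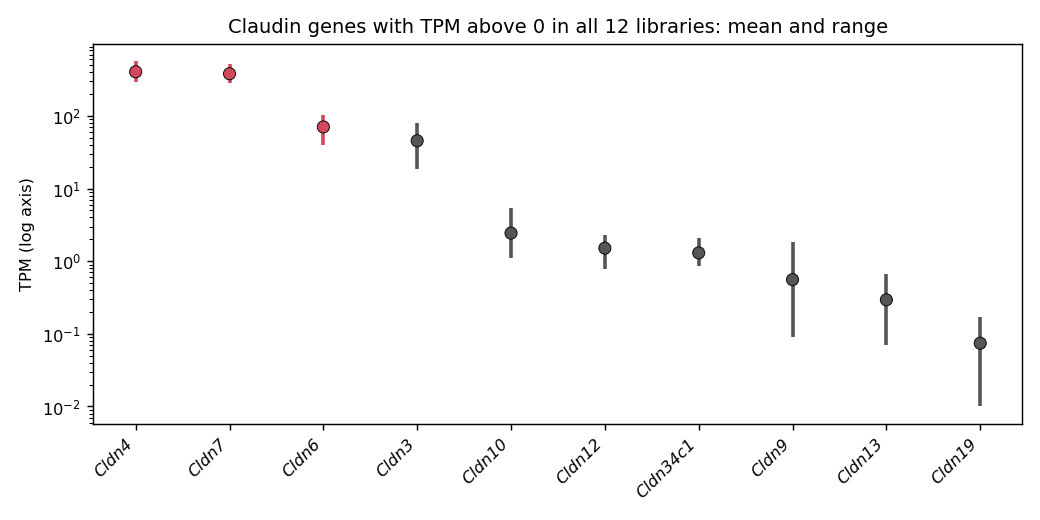
TPM on a log axis of the 10 claudin genes with a value above 0 in all 12 libraries. Points are means over 12 libraries, lines run from the lowest to the highest library, and the 3 claudin members are red. Cldn4 (405 TPM) and Cldn7 (381 TPM) stand highest with overlapping ranges.

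The genes differed in how much they varied between libraries. The coefficient of variation of TPM (SD as a percentage of the mean) was 26.9% for Cldn6, 23.1% for Cldn4, 22.4% for Ocln, 17.3% for Tjp1, 16.6% for Cldn7, 14.3% for F11r and 6.66% for Cgn. Among tested genes of a mean TPM within a factor of 2, 94.6% varied less than Cldn4 and 93.1% less than Cldn6. Only 0.945% varied less than Cgn, which kept between 21.4 and 27.1 TPM in all 12 libraries. Cgn encodes a cytoplasmic plaque protein that links the junction to actin.

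**Figure D2:**
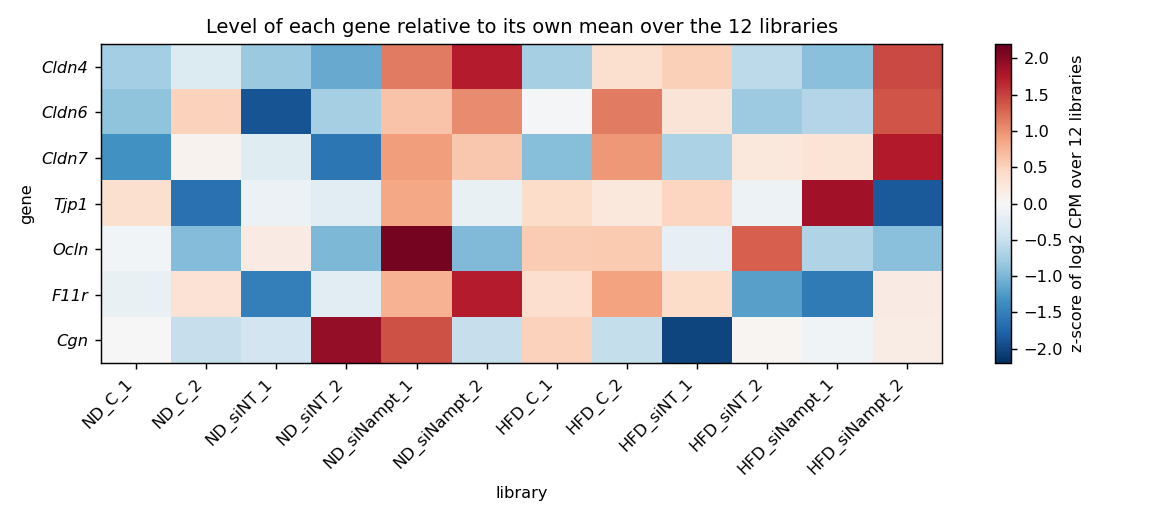
Level of each gene (rows) in each library (columns) as a z-score of log2 CPM over the 12 libraries, red above and blue below the gene's own mean. The 2 ND_siNampt libraries are above the mean for Cldn4, Cldn6, Cldn7 and F11r, and ND_siNampt replicate 1 also for Ocln, Tjp1 and Cgn.

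The central comparison was siNampt against siNT, both electroporated. For Cldn4, whose protein is a claudin of tight epithelia, ND libraries read 309 and 296 TPM with siNT and 493 and 550.4 TPM with siNampt. HFD libraries read 450.3 and 329 TPM with siNT and 340.2 and 565 TPM with siNampt. The control libraries read 349.5 and 398 TPM in ND and 338 and 438 in HFD. The siNampt libraries were thus the highest 2 of the ND diet, while in HFD siNampt held both the highest library and one close to the lowest, and the groups overlapped.

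For Cldn6, a claudin of embryonic epithelia, ND libraries read 40.3 and 52.6 TPM with siNT and 80.1 and 88.2 TPM with siNampt. HFD libraries read 75.0 and 52.2 TPM with siNT and 59.7 and 103 TPM with siNampt, and controls read 56.3, 80.6, 65.5 and 91.7 TPM (ND, then HFD). As for Cldn4, siNampt and siNT libraries did not overlap in ND and overlapped in HFD.

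For Cldn7, a claudin also found along the lateral membrane of epithelial cells, ND libraries read 328 and 285 TPM with siNT and 426 and 415 TPM with siNampt. HFD libraries read 357 and 355 TPM with siNT and 398 and 512 TPM with siNampt, and controls read 325, 401, 328 and 439 TPM. All 4 siNampt libraries lay above all 4 siNT libraries, in TPM and in CPM, and the controls spanned both. The gap was narrow in CPM. There the lowest siNampt library (HFD replicate 1) was at 430.1 and the highest siNT library (HFD replicate 2) at 426.4. Of all tested genes 3.38% had siNampt libraries wholly above siNT libraries over both diets, and Cldn7 was the 1 member of 7 that did. Libraries lay wholly below for 2.71% of genes and for 0 of 7 members.

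**Figure D3:**
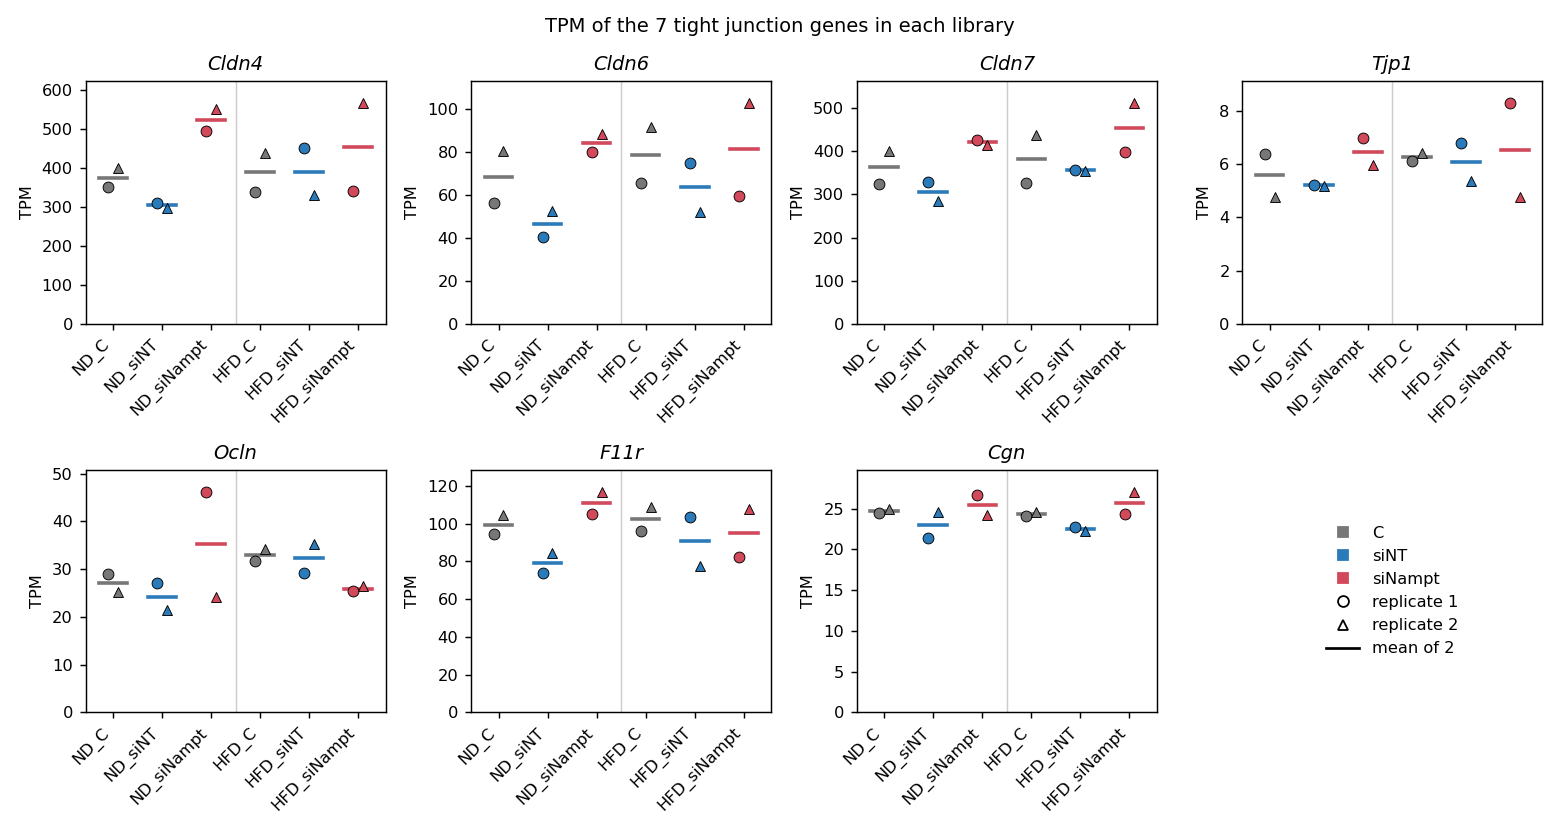
TPM of the 7 genes in each of the 12 libraries, by group on the x axis, each panel with its own y axis from 0. Circles and triangles are replicates 1 and 2, and bars are the means of 2. All 4 siNampt libraries of Cldn7 (398 to 512 TPM) lie above its 4 siNT libraries (285 to 357 TPM).

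Over both diets, 0 of 7 members passed an adjusted p of 0.05 in edgeR's quasi-likelihood test, and 0 of 14743 genes did (0%). At an unadjusted p under 0.05 there were 3 of 7, all with higher values in siNampt, against 11.2% of all genes in either direction and 6.1% in the higher direction. Log2 fold changes of TMM-scaled counts were 0.46 (SE 0.17) for Cldn6, 0.35 (SE 0.14) for Cldn4 and 0.25 (SE 0.11) for Cldn7, which are 1.37-fold, 1.28-fold and 1.19-fold. Their unadjusted p-values in edgeR were 0.0178, 0.0243 and 0.0337, and their adjusted p-values 0.396, 0.398 and 0.425. The other members were at 0.14 (SE 0.11) for F11r, 0.08 (SE 0.17) for Tjp1, 0.03 (SE 0.10) for Cgn and -0.02 (SE 0.21) for Ocln. The median over the 7 was 0.14, beside 0.03 over all genes. By DESeq2 and by limma on log2(TPM + 1) also 0 of 7 passed the adjusted threshold, here and in the other 6 comparisons, and here 2 of 7 had an unadjusted p under 0.05 by DESeq2 (11.7% of genes) and 3 of 7 by limma (13.6%).

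In pairs of the same diet and batch, siNampt exceeded siNT in 4 of 4 pairs for Cldn7 and in 3 of 4 for Cldn4 and Cldn6. The exception for Cldn4 and Cldn6 was HFD replicate 1, at -0.37 and -0.30 on the log2 CPM scale, the pair that holds the library of smaller fragments. Without that library Cldn4 was at 0.45 and Cldn6 at 0.57 over both diets, both still with an unadjusted p under 0.05 in edgeR, and Cldn7 at 0.23, with one above it. Within batch 1 the mean differences were 0.07, 0.26 and 0.18 for Cldn4, Cldn6 and Cldn7, and within batch 2 they were 0.61, 0.64 and 0.31. For all 3 claudins the mean difference was thus positive in both batches and larger in batch 2. Single pairs did not all follow this order. The ND pairs of Cldn6 were at 0.81 in batch 1 and 0.57 in batch 2.

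**Figure D4:**
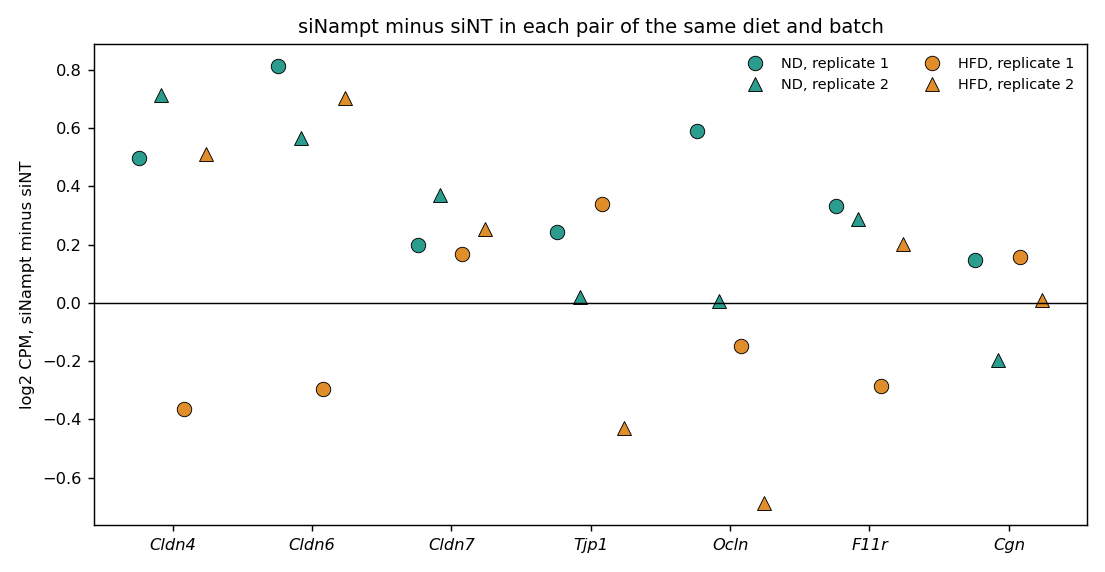
Difference in log2 CPM between siNampt and siNT in each of the 4 pairs that share diet and batch, for each gene. Cldn7 is above 0 in all 4 pairs, Cldn4 and Cldn6 in 3, and Ocln is above 0 in both ND pairs and below 0 in both HFD pairs.

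Base composition of the transcripts differed between members. Cldn4 and Cldn7 transcripts have 56.8% and 57.0% GC, above 86.4% and 87.1% of tested genes, and Ocln has 41.96%, above 11.6%. Cgn has 54.7% and Cldn6 54.4%, above 76.5% and 75.0% of tested genes. F11r has 50.1% and Tjp1 46.8%. When a trend of log2 CPM on GC content and length was removed from each library, a check added after the data were seen, Cldn4 was at 0.11, Cldn6 at 0.31 and Cldn7 at 0.07, and 0 of 7 members had an unadjusted p under 0.05, against 5.11% of genes in that fit. With the replicate block as well, the values were 0.11, 0.31 and 0.07, and 1 member (Cldn6) had one in edgeR, against 6.04% of genes. The count over both diets was also 0 of 7 without ND_siNampt replicate 2 (8.13% of genes in that fit) or without HFD_siNampt replicate 2 (6.77%). It was 1 without ND_siNT replicate 1 (Cldn7, beside 6.51% of genes) or replicate 2 (Cldn6, beside 7.39%). It was 4 without HFD_siNampt replicate 1 (the 3 claudins and F11r, beside 14.5% of genes). Without ND_siNampt replicate 1 it was 3, with Ocln at -0.34 in place of Cldn7, beside 11.8% of genes. Trophectoderm markers summed to 5899 to 8411 TPM with siNT and to 6664 to 10190 with siNampt. By fitted value 10 of 15 were higher, and 2 had an unadjusted p under 0.05 in edgeR, against 11.2% of all genes. The part of this difference in the claudin values was not tested.

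In ND alone the fitted siNampt differences of Cldn4 and Cldn6 were above those over both diets. Cldn6 was at 0.68 (SE 0.25), a 1.60-fold level, and Cldn4 at 0.61 (SE 0.19), a 1.52-fold level. In edgeR their unadjusted p-values were 0.0167 and 0.00682 and their adjusted p-values 0.544 and 0.536. Cldn7 was at 0.28 (SE 0.16), F11r at 0.31 (SE 0.15), Ocln at 0.36 (SE 0.27), Tjp1 at 0.14 (SE 0.26) and Cgn at -0.03 (SE 0.14). Thus 0 of 7 passed the adjusted threshold (0% of genes did), and 2 of 7 had an unadjusted p under 0.05, against 8.34% of genes. With limma on log2(TPM + 1) 4 of 7 had one, against 9.6% of genes in that fit.

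In CPM, the 2 ND siNampt libraries lay above the 2 siNT libraries for 4 of 7 members (Cldn4, Cldn6, Cldn7 and F11r), as for 21.5% of genes, and below them for 0 of 7, as for 19.8%. In TPM the Tjp1 libraries were apart in the same direction as well, while in CPM they overlapped. The share of all genes apart in TPM was not computed. On the log2(TPM + 0.1) scale the median of all genes was 0.16 here. With the GC and length trend removed, Cldn4 was at 0.33 and Cldn6 at 0.51, both still with an unadjusted p under 0.05 in edgeR, and Cldn7 at 0.09. Leaving out ND_siNT replicate 1 put Cldn6 at 0.51, and leaving out ND_siNampt replicate 2 put it at 0.62, each with an unadjusted p above 0.05 in edgeR. Trophectoderm markers moved in the same direction here. Their summed TPM was 5899 and 7731 with siNT and 8060 and 10190 with siNampt. Of these 15 markers 12 had higher fitted values and 6 had an unadjusted p under 0.05 in edgeR, against 8.34% of all genes. Inner cell mass markers summed to 531 and 549 TPM with siNT and to 532 and 540.04 with siNampt. Of these 12 markers 9 were lower by fitted value and 2 had an unadjusted p under 0.05 in edgeR, beside the same 8.34%. The part of the marker difference in the claudin difference was not tested.

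In HFD the same comparison gave Cldn6 0.23 (SE 0.24), Cldn7 0.21 (SE 0.16), Cldn4 0.10 (SE 0.19), Cgn 0.08 (SE 0.14), Tjp1 0.03 (SE 0.26), F11r -0.04 (SE 0.15) and Ocln -0.44 (SE 0.27). With edgeR 0 of 7 had an unadjusted p under 0.05, against 4.27% of genes, and 0 passed the adjusted threshold (0% of genes). In CPM, 1 member of 7 (Cldn7) had siNampt libraries above siNT libraries, as 17.9% of genes did, and 1 (Ocln) had them below, as 15.6% did. In TPM the Cgn libraries lay above as well, while in CPM they overlapped. For TPM no share of all genes was computed, and their median on the log2(TPM + 0.1) scale was 0.13. The 95% intervals ran from -0.31 to 0.50 for Cldn4 and from -0.30 to 0.76 for Cldn6. Without HFD_siNT replicate 1, Cldn4 was at 0.24, Cldn6 at 0.41 and Ocln at -0.66. With the GC and length trend removed, Cldn4 in HFD was at -0.12, and without HFD_siNampt replicate 2 it was at -0.26 and Cldn6 at -0.16. Trophectoderm markers here had 7 of 15 higher by fitted value.

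**Figure D5:**
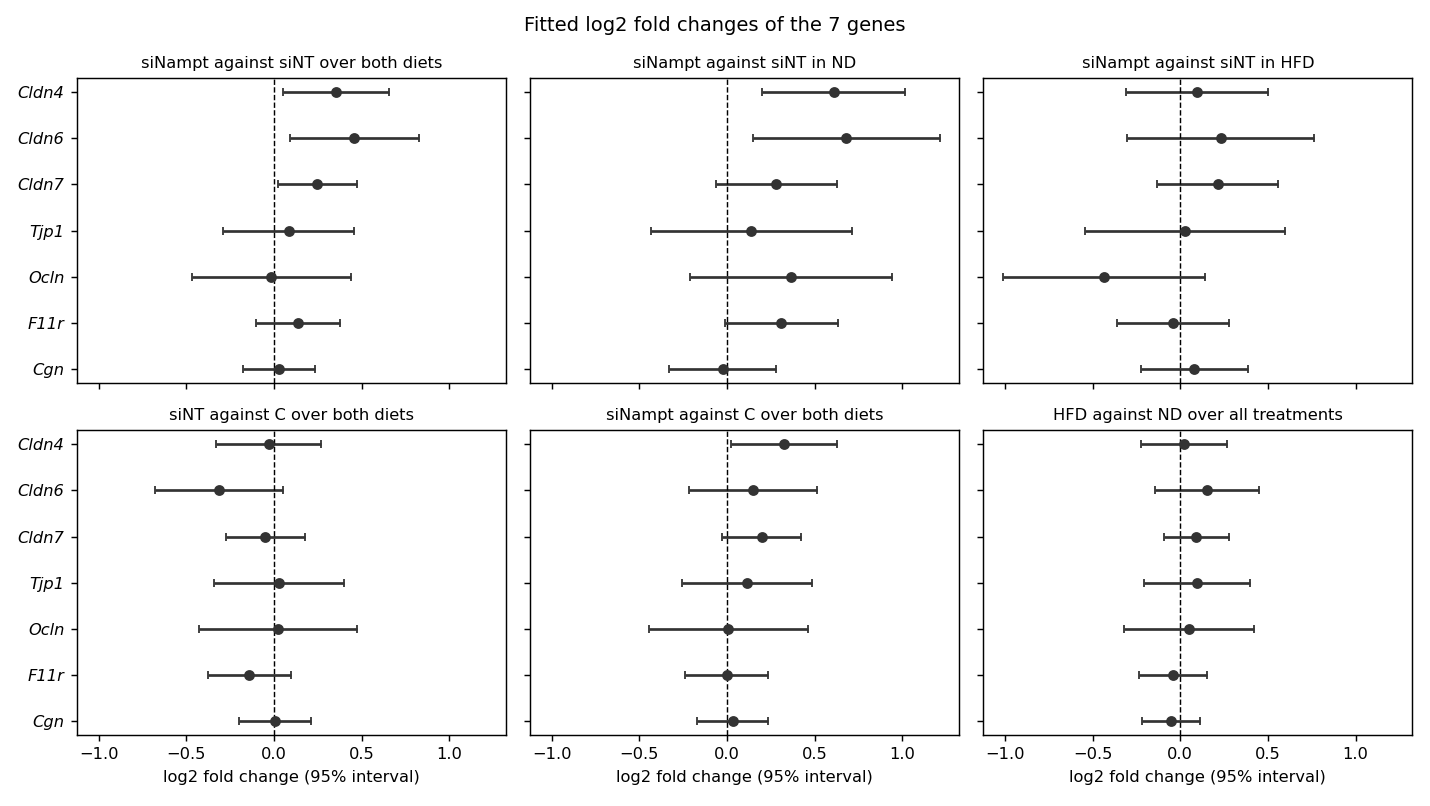
Fitted log2 fold changes of the 7 genes, with 95% intervals, in 6 comparisons. The intervals of Cldn4 and Cldn6 lie above 0 for siNampt against siNT over both diets and in ND, and that of Cldn7 over both diets.

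The difference between diets was tested itself. The siNampt difference in HFD minus that in ND was -0.51 (SE 0.26) for Cldn4, -0.45 (SE 0.35) for Cldn6 and -0.07 (SE 0.22) for Cldn7. For Ocln it was -0.80 (SE 0.38), for F11r -0.35 (SE 0.21), for Tjp1 -0.11 (SE 0.37) and for Cgn 0.11 (SE 0.20). With edgeR 0 of 7 had an unadjusted p under 0.05, against 3.06% of genes, and all adjusted p-values were 1.00 after rounding, with 0% of genes passing. Ocln had an unadjusted p under 0.05 with DESeq2 (3.43% of genes in that fit) and in edgeR with the replicate block (3.68%). Without HFD_siNT replicate 1 it was at -1.03. With no filter 2 of 7 members had an unadjusted p under 0.05 in edgeR, against 4.14% of genes. By this test the claudin responses of the 2 diets were not shown to differ, and the interval for Cldn4 ran from -1.08 to 0.06. With the GC and length trend removed, Cldn4 was at -0.45, with an unadjusted p under 0.05 in edgeR (3.5% of genes in that fit). It was at -0.66 without HFD_siNT replicate 2 and at -0.88 without HFD_siNampt replicate 2. In the last of these Cldn6 was at -0.85 and F11r at -0.52. With each of the 12 libraries left out in turn, Cldn4 ran from -0.88 to -0.24. Cldn6 ran from -0.85 to -0.16 and F11r from -0.52 to -0.23.

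The remaining membrane components showed smaller or less even differences. Ocln, a membrane component of the strands, read 27.2 and 21.3 TPM with siNT and 46.2 and 24.3 with siNampt in ND. In HFD it read 29.2 and 35.2 TPM with siNT and 25.5 and 26.4 with siNampt. Controls read 28.9, 25.1, 31.6 and 34.2 TPM. The ND siNampt value rests on replicate 1, and without that library the difference between diets was -0.25 in place of -0.80. F11r, an immunoglobulin-type adhesion molecule of the junction, read 73.9 and 84.7 TPM with siNT and 105 and 117 with siNampt in ND. In HFD it read 104 and 77.5 TPM with siNT and 82.5 and 108 with siNampt, and controls read 94.5, 104, 96.0 and 109 TPM. Its groups were apart in ND and overlapped in HFD.

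Small differences were also seen for the genes of the cytoplasmic plaque. Tjp1 encodes ZO-1, the scaffold that binds claudin tails, and read 5.22, 5.2, 6.81 and 5.37 TPM with siNT (ND, then HFD) and 7.0, 5.96, 8.31 and 4.78 with siNampt. Its control libraries read 6.4, 4.78, 6.14 and 6.43 TPM. In TPM siNampt and siNT were apart in ND and overlapped in HFD, and in CPM they overlapped in both diets. Within batch 1 its siNampt difference was 0.29 and within batch 2 it was -0.20. Cgn read 21.4, 24.6, 22.8 and 22.3 TPM with siNT and 26.6, 24.3, 24.4 and 27.1 with siNampt, and 24.4, 25.0, 24.1 and 24.5 in controls. In TPM siNampt and siNT overlapped in ND and were apart in HFD, and in CPM they overlapped in both diets. Its 95% interval over both diets ran from -0.18 to 0.23 on the log2 scale.

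The comparison of siNT against C gave no member with an unadjusted p under 0.05 in edgeR (0 of 7, against 4.4% of genes). No member passed the adjusted threshold (0% of genes). Cldn6 was at -0.31 (SE 0.17) and F11r at -0.14 (SE 0.11), and the other 5 lay between -0.05 and 0.03. Cldn6 was lower in siNT than in C in 3 of 4 pairs. Without HFD_siNT replicate 1 it was at -0.43, with an unadjusted p under 0.05, and Cldn4 at -0.14. The median of the 7 was -0.03, beside -0.01 over all genes.

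Against C, siNampt put Cldn4 at 0.32 (SE 0.14), with an unadjusted p of 0.0371 and an adjusted p of 0.999 in edgeR. It was the 1 of 7 with an unadjusted p under 0.05, against 3.8% of genes, and 0 passed the adjusted threshold (0% of genes). Cldn7 was at 0.20 (SE 0.11) and higher in siNampt in 4 of 4 pairs. Cldn6 was at 0.15 (SE 0.17), Tjp1 at 0.11 (SE 0.17), Cgn at 0.03 (SE 0.10), Ocln at 0.01 (SE 0.21) and F11r at -0.003 (SE 0.11). The Cldn4 value was 0.17 with the GC and length trend removed and 0.33 in limma on log2(TPM + 1), with an unadjusted p above 0.05 in both. This comparison shares the siNampt libraries with the one against siNT and the C libraries with that of siNT against C. For Cldn6 the 3 values were 0.46 for siNampt against siNT, -0.31 for siNT against C and 0.15 for siNampt against C.

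By diet, none of the 7 passed a threshold. HFD against ND over all treatments gave Cldn6 0.15 (SE 0.14), Tjp1 0.10 (SE 0.14), Cldn7 0.09 (SE 0.09), Ocln 0.05 (SE 0.17), Cldn4 0.02 (SE 0.12), F11r -0.04 (SE 0.09) and Cgn -0.05 (SE 0.08). In edgeR 0 of 7 had an unadjusted p under 0.05, against 3.22% of genes, and 0 passed the adjusted threshold (0% of genes). Of 6 pairs of the same treatment and batch, HFD was higher in 5 for Tjp1, in 4 for Cldn4, Cldn6, Cldn7 and Ocln, in 3 for F11r and in 2 for Cgn. The 95% interval for Cldn4 ran from -0.22 to 0.27.

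Other genes of the junction were described from lists by role. The list of other claudins includes the claudin-domain genes Cldnd1 and Cldnd2 and leaves out some of the claudin genes of the files. Of its 28 genes, 26 were in the files and 12 were tested, and over both diets 4 were higher and 8 lower in siNampt, with a median of -0.12 beside 0.03 over all genes. Of the 12, 1 (Cldn3) had an unadjusted p under 0.05 in edgeR, against 11.2% of all genes, and 0 passed the adjusted threshold. Cldn3, a barrier claudin and the neighbour of Cldn4, read 44.2 and 21.8 CPM with siNT and 83.8 and 49.3 with siNampt in ND, and 48.8 and 49.6 with siNT against 45.05 and 57.9 CPM with siNampt in HFD. Its log2 fold change was 0.53 (SE 0.24) over both diets and 1.01 (SE 0.31) in ND in edgeR, and siNampt was higher in 3 of 4 pairs. As for Cldn4 and Cldn6, the exception was HFD replicate 1. Cldn10, Cldn12, Cldn34c1 and Cldnd1 were at -0.72 (SE 0.43), -0.12 (SE 0.27), -0.13 (SE 0.38) and -0.13 (SE 0.16). Cldn10, which encodes a channel-forming claudin, was at -1.35 (SE 0.58) in HFD and at -0.01 (SE 0.57) in ND.

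Among 13 other transmembrane genes of the junction, 10 were higher and 3 lower in siNampt than in siNT over both diets, with a median of 0.30, and 1 had an unadjusted p under 0.05 in edgeR. It was Lsr, which encodes a protein of the contacts where 3 cells meet, at 0.66 (SE 0.20), and at 1.02 (SE 0.27) in ND. Of 15 scaffold and adaptor genes 8 were higher and 7 lower, with a median of 0.09, and 0 had an unadjusted p under 0.05. Of 16 regulators 11 were higher and 5 lower, with a median of 0.17, and 3 higher and 1 lower had an unadjusted p under 0.05. St14, the membrane protease matriptase, was at 0.67 (SE 0.18), and Spint1, an inhibitor of it, at 0.36 (SE 0.12). The others, named after their values were seen, were Pard6b at 0.40 and the kinase gene Rock1 at -0.37. Of 16 transcription factors of the epithelial programme 11 were higher and 5 lower, with a median of 0.15, and 3 higher had an unadjusted p under 0.05. They were Tead4 at 0.41, Grhl3 at 0.65 and Elf3 at 0.24, also named after their values were seen. In none of these lists did a gene pass the adjusted threshold, and each list's median stands beside 0.03 over all genes. The counts at an unadjusted p under 0.05 stand beside 11.2% of all genes in either direction and 6.1% in the higher direction.

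Within the diets and in the other comparisons, again 0 genes of these 5 lists passed the adjusted threshold in edgeR. The order below leaves out markers that are only in the lists of cell types. Cdx2, Gata3 and Tfap2c are in both the list of transcription factors and that of trophectoderm markers. In ND the smallest p-values of the 5 lists after Lsr were those of Elf3, an epithelial transcription factor, at 0.47 (SE 0.14), and St14 at 0.87 (SE 0.26). In HFD Cldn10 was followed by Rab13, a small GTPase of junction assembly, at -0.67 (SE 0.33), and Spint1 at 0.36 (SE 0.18). For the difference between diets they were Ovol1 at -1.45 (SE 0.56), Elf3 at -0.47 (SE 0.20) and the polarity gene Pard6a at -0.90 (SE 0.39). For siNT against C they were Spint1 at -0.30 (SE 0.12), Rock2 at 0.31 (SE 0.16) and Amotl2 at 0.31 (SE 0.16). For siNampt against C they were Cldn10 at -1.20 (SE 0.42), the polarity gene Pard6b at 0.41 (SE 0.18) and St14 at 0.40 (SE 0.18). For diet they included the scaffold gene Magi1 at -0.46 (SE 0.19) and Gata3, a trophectoderm transcription factor, at 0.18 (SE 0.08).

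Genes of like pattern were sought among the 8483 genes averaging 5 CPM or more, by Pearson's r over the 12 libraries, which share batches and depth, as a description with no test. For the mean z-score of the 7 members they were Tprgl (r = 0.88, Spearman's rank correlation 0.81), Elf3 (r = 0.88, rank correlation 0.84), Capzb (r = 0.85, rank correlation 0.69), Naa60 (r = 0.84, rank correlation 0.78) and Fastk (r = 0.84, rank correlation 0.87). The 7 members did not share one pattern, as r between them ran from -0.33 (Cldn6 and Tjp1) to 0.82 (Cldn4 and Cldn6). For single members the nearest were Narfl for Cldn4 (r = 0.92, rank correlation 0.67), Cdc20 for Cldn6 (r = 0.92, rank correlation 0.92) and Capn1 for Cldn7 (r = 0.92, rank correlation 0.92). They were Efnb2 for Tjp1 (r = 0.95, rank correlation 0.84), Entpd1 for Ocln (r = 0.95, rank correlation 0.94) and Myof for Cgn (r = 0.81, rank correlation 0.64).

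The files also give a length per gene that is weighted by its transcripts. Cldn7, Tjp1 and Cgn have 2 RefSeq transcripts each in the files, and the other 4 members have 1, for which the length is fixed. The weighted length of Tjp1 ran from 6900 to 6963 bases over the 12 libraries, with 6905 to 6963 in siNT and 6907 to 6941 in siNampt. That of Cldn7 ran from 1293 to 1307 bases, and that of Cgn from 5014 to 5024. For these 3 genes the treatments overlapped.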

How the data were processed

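Poly(A) RNA of 12 pools of 10 blastocysts was sequenced from SMART-Seq libraries, per the labels. The submitters' processing notes name STAR 2.7.10, RSEM 1.2.28 and mm10; strandedness was not found in the labels, and reads of overlapping antisense genes cannot be told apart. Per the file headers, the deposited values are expected counts, TPM, FPKM (not used), and length and effective length in bases, whose gap estimates fragment size. Of expected counts above 0, 9.27% were not whole, and all were rounded.

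Counts were filtered with filterByExpr (minimum count 10), scaled by TMM and tested in all 12 libraries with edgeR 4.0.16 (R 4.3.3, quasi-likelihood, two-sided, Benjamini-Hochberg over 14743 genes, threshold 0.05). Comparisons over both diets came from a model with diet and treatment as additive terms, and those within diets from 6 group means. The method was tested on simulated data. SE is the absolute log2 fold change over the square root of F. Log2 CPM used a prior count of 2.

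Batch equals replicate number, so numbers pair libraries by label. Over 15 pairs of groups, deviations between replicates correlated at r = -0.11 to 0.56 (median 0.16). The model had no block.

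The alternatives were DESeq2 1.42.0, RLE factors, no filter, 5 CPM in 2 libraries, the block, limma 3.58.1 on log2(TPM + 1) and log2(TPM + 0.1), only the libraries compared, each library left out, and, chosen after seeing the data, a GC and length correction (GC known for 99.1% of tested genes). All 7 members matched RefSeq promoters.

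The members and lists were chosen with earlier results of these data known. Named were all members, other claudins of at least 1 TPM, failing adjusted calls 3 listed genes of smallest p, and genes of like pattern; some of these are not reported here.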

Additional observations from a re-analysis of the deposited data

Results flagged for a closer look

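Values stood out in 3 cases among the 7 genes. Tjp1 in ND_C replicate 2 (30.6 CPM) lay far from the other 3 C libraries (42.2 to 43.5 CPM), with a gap of 0.915 of the range of log2 CPM. Ocln in ND_siNampt replicate 1 (137 CPM) lay far from the other 3 siNampt libraries (71.2 to 76.1 CPM), with a gap of 0.900 of the range. Of 35 sets of libraries checked in this way, chance alone flags about 1 in 20.

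For Ocln the siNampt minus siNT difference was above 0 in both ND pairs (0.59 and 0.0075 on the log2 CPM scale) and below 0 in both HFD pairs (-0.15 and -0.69). The fitted difference between diets was -0.80 (SE 0.38), with an unadjusted p of 0.0538 and an adjusted p of 1.00 in edgeR. It was -0.25 without ND_siNampt replicate 1, the library noted above, -1.21 without ND_siNampt replicate 2 and -1.03 without HFD_siNT replicate 1.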

How the results depend on the processing

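The number of members past the adjusted threshold was 0 of 7 in each of the 7 comparisons under every alternative run, so none was lost or gained. Over all genes no filter called 119, 76, 71, 99, 108, 68 and 40 genes and DESeq2 1, 2, 2, 2, 0, 2 and 0 (siNampt against siNT over both diets, siNT against C, siNampt against C, diet, siNampt against siNT in ND and in HFD, and the difference between diets), where edgeR as reported and the other alternatives that keep all libraries called 0. With the replicate block 3 of 7 members and 12% of genes had an unadjusted p under 0.05 for siNampt against siNT over both diets, and the pairing by batch changed no adjusted call. For the difference between diets, Ocln was at -0.80 with the block, with an unadjusted p under 0.05. On the log2(TPM + 0.1) scale the median of all genes was 0.14 for siNampt against siNT and -0.11 for siNT against C, so member values shift with it.

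Of 490 member values under alternatives that keep all libraries, 446 kept their sign. The others were near 0 as reported, and the cause was not tested. With limma on log2(TPM + 1) they were Ocln 0.082 in siNampt against siNT over both diets, Tjp1 -0.061, Ocln -0.095 and Cgn -0.10 in siNT against C, Ocln -0.013 and F11r 0.021 in siNampt against C, Cgn 0.14 in siNampt against siNT in ND, F11r 0.071 in siNampt against siNT in HFD. With limma on log2(TPM + 0.1) they were Ocln 0.084 in siNampt against siNT over both diets, Tjp1 -0.070, Ocln -0.098 and Cgn -0.11 in siNT against C, Ocln -0.015 and F11r 0.021 in siNampt against C, Cgn 0.15 in siNampt against siNT in ND, F11r 0.072 in siNampt against siNT in HFD. With the GC and length correction they were Ocln 0.065 and Cgn -0.19 in siNampt against siNT over both diets, Cldn4 0.062 and Cldn7 0.0037 in siNT against C, Cgn -0.11 in siNampt against C, Cldn4 -0.12, Tjp1 -0.097 and Cgn -0.20 in siNampt against siNT in HFD, Cgn -0.021 in the difference between diets. With that correction with the replicate block they were Ocln 0.056 and Cgn -0.19 in siNampt against siNT over both diets, Cldn4 0.062 and Cldn7 0.0039 in siNT against C, Cgn -0.11 in siNampt against C, Cldn4 -0.13, Tjp1 -0.11 and Cgn -0.20 in siNampt against siNT in HFD, Cgn -0.020 in the difference between diets. With no filter they were Cgn -0.0037 in siNT against C. With the stricter filter they were Cgn -0.0040 in siNT against C, F11r 0.0027 in siNampt against C. With DESeq2 they were Ocln -0.0039 in siNampt against C, Tjp1 -0.0012 in siNampt against siNT in HFD. With RLE factors they were Ocln -0.0040 in siNampt against C, Tjp1 -0.0012 in siNampt against siNT in HFD. With the replicate block they were Ocln -0.0055 in siNampt against C, Tjp1 -0.015 in siNampt against siNT in HFD. With only the libraries compared they were Ocln -0.016 in siNampt against C. Of 588 values with a library left out, 528 kept their sign. For each result with a change of sign, the lowest and highest values over the 12 libraries left out follow. For siNampt against siNT over both diets they ran from -0.065 to 0.25 for Tjp1, from -0.34 to 0.12 for Ocln and from -0.017 to 0.080 for Cgn. For siNT against C they ran from -0.14 to 0.037 for Cldn4, from -0.11 to 0.015 for Cldn7, from -0.082 to 0.096 for Tjp1, from -0.13 to 0.13 for Ocln and from -0.052 to 0.045 for Cgn. For siNampt against C they ran from -0.042 to 0.27 for Tjp1, from -0.32 to 0.12 for Ocln and from -0.080 to 0.091 for F11r. For HFD against ND they ran from -0.043 to 0.13 for Cldn4, from -0.0089 to 0.20 for Tjp1, from -0.049 to 0.25 for Ocln and from -0.089 to 0.023 for F11r. For siNampt against siNT in ND they ran from -0.18 to 0.77 for Ocln and from -0.11 to 0.080 for Cgn. For siNampt against siNT in HFD they ran from -0.26 to 0.37 for Cldn4, from -0.16 to 0.53 for Cldn6, from -0.50 to 0.39 for Tjp1, from -0.20 to 0.090 for F11r and from -0.0056 to 0.16 for Cgn. For the difference between diets they ran from -0.23 to 0.050 for Cldn7, from -0.64 to 0.24 for Tjp1 and from -0.0065 to 0.19 for Cgn. Groups left with 1 library borrow the spread of the other groups. The lowest rounded count of a member in any library was 1384.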
